A study of Mus musculus with 16 samples.

Results

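The genes of oxidative phosphorylation were followed in mesenchymal stromal cells sorted from mouse hindlimb muscle after an injection of CGRP or PBS. They encode the subunits of the respiratory chain (complexes I to IV) and of ATP synthase (complex V). A row of the gene count table was a member where its symbol matched a pattern for structural subunits of the complexes. Nuclear symbols were Ndufa, Ndufb, Ndufc, Ndufs and Ndufv with a number, Sdha to Sdhd, and those starting with Uqcr, Cox4 to Cox8 or Atp5. Mitochondrial symbols were those of protein-coding genes, mt-Nd, mt-Co, mt-Cytb and mt-Atp. Membership rests on the symbol alone, and Atp5s, for example, has the RefSeq symbol Dmac2l. The pattern matched 101 of 52997 rows, 6 of which were left out because their symbols end in -ps, the mark of a pseudogene. Of the 95 members, 88 had at least 10 reads in 4 or more libraries and are described here. They comprised 77 genes of the nuclear genome and 11 of the mitochondrial genome. The nuclear members were 35 of complex I, 4 of complex II, 8 of complex III, 14 of complex IV (Ndufa4 counted there) and 16 of complex V, and the mitochondrial members were 6 of complex I, 1 of complex III, 3 of complex IV and 1 of complex V. The other 7 were Cox4i2 (0 to 8 counts per library), Cox6a2 (0 to 7), Cox6b2 (0 to 13), Cox7b2 (0 to 2), Cox8c (0 to 1), mt-Atp8 (1 to 8) and mt-Nd4l (1 to 6).

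C57BL/6 mice, 8 weeks old, received CGRP or PBS by intraperitoneal injection, and their hindlimb muscle was taken 4 or 8 h later. The 4 groups were CGRP at 4 h, PBS at 4 h, CGRP at 8 h and PBS at 8 h, with 4 libraries each, which the study's design calls biological replicates. Each library was made from 1000 cells that were sorted a second time before lysis. The number of mice behind a library and the surface markers of the sort were not given in the sources used here, so p-values measure the spread between these libraries. CGRP, calcitonin gene-related peptide, is a neuropeptide released by sensory nerve endings, and its receptor signals through cAMP.

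In the inner mitochondrial membrane, complex I (NADH dehydrogenase) and complex II (succinate dehydrogenase) pass electrons by way of ubiquinone to complex III (the cytochrome bc1 complex), and cytochrome c carries them on to complex IV (cytochrome c oxidase), which reduces oxygen. Complexes I, III and IV pump protons, and complex V makes ATP from the returning flow. All subunits of complex II, and most of those of the other complexes, are encoded in the nucleus and imported, while the mitochondrial genome encodes a small set of hydrophobic core subunits. The nuclear factors NRF1 and GABPA (also called NRF2) and the factor YY1 are known to bind promoters of many nuclear subunit genes.

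Among the genes whose mRNA was called higher after CGRP at 8 h, 3 had a match to the NRF1 motif in the promoter, and these 3 are printed. The call of Ndufa8 held in all 16 fits that left out 1 library. Those of Uqcr11 and Uqcrc1 were lost in 6 and 7 of the 16. Cox5a and Ndufa12, whose calls also held in all 16, had 0 matches to the motifs searched. The windows are RefSeq promoters of build GRCm38.p6, from 250 bases before to 50 bases after the gene start, 5′ to 3′ on the strand of the gene, with motif matches in capitals. Ndufa8, an accessory subunit of complex I, has its window at chr2:36049289-36049588 on the minus strand, with an NRF1 match that starts 8 bases before the gene start. Uqcr11, a small subunit of complex III, has its window at chr10:80406772-80407071 on the minus strand, with a GABPA match and then an NRF1 match, 66 and 4 bases before the start. Uqcrc1, a core subunit of complex III, has its window at chr9:108936398-108936697 on the plus strand, with 2 overlapping NRF1 matches, one on each strand, that start at bases 31 and 33 after the start.
Ndufa8: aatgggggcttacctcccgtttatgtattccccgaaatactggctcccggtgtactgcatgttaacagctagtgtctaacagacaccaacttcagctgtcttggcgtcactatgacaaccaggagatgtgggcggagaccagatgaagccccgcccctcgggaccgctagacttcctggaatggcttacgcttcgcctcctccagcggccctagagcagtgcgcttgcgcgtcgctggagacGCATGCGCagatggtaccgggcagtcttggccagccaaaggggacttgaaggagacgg
Uqcr11: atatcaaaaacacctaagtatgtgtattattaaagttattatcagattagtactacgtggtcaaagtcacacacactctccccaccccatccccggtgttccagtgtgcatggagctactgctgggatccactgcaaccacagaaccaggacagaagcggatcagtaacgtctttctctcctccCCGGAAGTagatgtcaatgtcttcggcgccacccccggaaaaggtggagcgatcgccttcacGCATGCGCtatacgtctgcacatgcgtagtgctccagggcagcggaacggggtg
Uqcrc1: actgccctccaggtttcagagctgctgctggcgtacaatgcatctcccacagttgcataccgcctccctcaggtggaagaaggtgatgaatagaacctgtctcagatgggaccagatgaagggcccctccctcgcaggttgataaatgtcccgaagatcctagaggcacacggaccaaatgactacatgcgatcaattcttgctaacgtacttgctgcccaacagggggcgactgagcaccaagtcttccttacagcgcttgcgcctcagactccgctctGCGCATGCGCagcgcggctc

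The motifs searched, on both strands, were GCGCATGC for NRF1, CCGGAAGT for GABPA and AAGATGGC for YY1, and matches of the palindromic NRF1 core may overlap. A promoter was matched for 66 of the 77 nuclear members. Of these, 10 (15.2%) held the NRF1 motif, against 5.94% of the 9989 tested genes with a promoter and 3.05% of all 27025 promoters. The YY1 motif was in 10 (15.2%), against 5.29% and 3.19%, and the GABPA motif in 5 (7.58%), against 9.03% and 4.31%. Among the 13 members that passed as higher after CGRP at 8 h, 8 had a promoter in the table, and the NRF1 motif was in 3 of them, the GABPA motif in 1 and the YY1 motif in 0. Among the other 58 members with a promoter, NRF1 was in 7 (12.1%), GABPA in 4 (6.90%) and YY1 in 10 (17.2%). At least 1 of the 3 motifs was in 3 of the 8 (37.5%) and in 21 of the 58 (36.2%). These are matches of letters in a fixed window and were not tested.

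Some mitochondrial members cannot be separated from nuclear copies of the mitochondrial genome by short reads. The mt-Co2 gene, for a core subunit of complex IV, is matched base for base over 681 of its 684 bases by Gm28661, a copy on chromosome 1. The stretches below show this for mt-Co2 positions 311 to 370, at chrM:7323-7382 on the plus strand, and for the copy at chr1:24615196-24615255 on the minus strand (GRCm38, GENCODE M21), with 0 mismatches.
mt-Co2: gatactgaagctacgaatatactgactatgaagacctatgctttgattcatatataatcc
Gm28661: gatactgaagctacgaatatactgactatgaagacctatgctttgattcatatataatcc

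The reads were 25 bases long at each end, and the share of a transcript's 25-base words that also occur in transcripts of other genes was 100% for mt-Co2, 99.9% for mt-Co3, 99.5% for mt-Atp6 and 98.1% for mt-Nd3. It was 69.7% for mt-Co1, 62.9% for mt-Nd4, 21.3% for mt-Nd5, 18.2% for mt-Nd2, 14.9% for mt-Nd6, 13.04% for mt-Cytb and 0% for mt-Nd1. Copies without a mismatch were also found for mt-Co3 (Gm28437, 783 bases compared) and mt-Atp6 (Gm10925, 678 bases compared). The treatment of reads with several mapping positions was not given in the sources used here. Levels of mt-Co2, mt-Co3, mt-Atp6 and mt-Nd3 are therefore uncertain, and so in part are those of mt-Co1 and mt-Nd4. Of the 77 nuclear members, 13 shared no word, 32 shared over 10% and 1, Ndufs3, shared over 50% (61.4%).

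**Figure D1:**
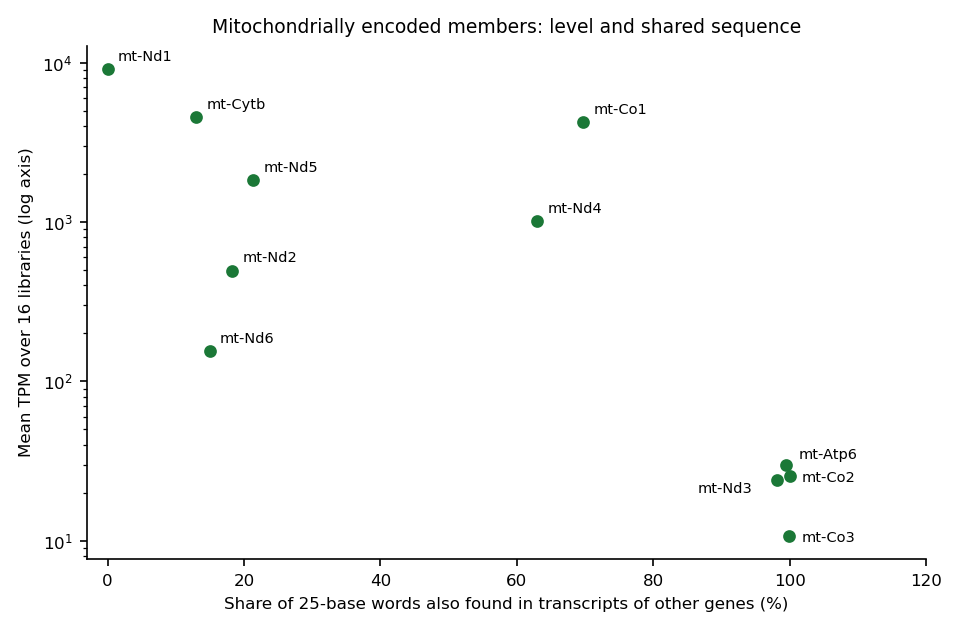
Mean level over 16 libraries (TPM, log axis) of each mitochondrially encoded member against the share of its 25-base words found in transcripts of other genes (percent). The 4 members above 98% lie at the bottom right, between 10.7 and 29.8 TPM, and mt-Nd1, which shares no word, lies highest at 9138 TPM.

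The libraries held 6373713 to 10011920 counts. All 10 stromal markers chosen for this tissue (Pdgfra, Dcn, Col3a1, Col1a1, Ly6a, Pi16, Dpp4, Col15a1, Smoc2 and Lum) had at least 988 counts in every library. At each time 1 of them, Ly6a, rose after CGRP and 5 fell, with Smoc2, Pdgfra, Dcn and Lum among the 5 at both times. Defining markers of other cells were low: Ptprc, the pan-leukocyte marker, had at most 8 counts, the myogenic gene Myf5 was at 0 in all 16 libraries and Pax7 in 12, and Cdh5 of endothelium was at 0 in 9. Other genes of these lists were not low, with 651 to 1144 counts for Tek of the endothelial list and 286 to 709 counts for Des of the satellite cell list. In the macrophage list Cd68 had 18 to 47 counts and Csf1r 5 to 42. Hbb-bs of the erythroid list had 0 to 306 counts. The summed erythroid list was 0.967 to 44.1 CPM after CGRP and 1.52 to 3.03 CPM after PBS at 8 h. The summed endothelial list, mostly Tek, was 77.7 to 105 CPM after CGRP and 108 to 129 CPM after PBS at 8 h. Transcripts of muscle fibres, which are rich in mitochondria, were present at a summed 131 to 200 CPM after CGRP and 165 to 246 CPM after PBS at 4 h, and 145 to 198 CPM after CGRP and 211 to 327 CPM after PBS at 8 h. Of the 12 myofibre markers tested, 2 fell after CGRP at 8 h, Atp2a1 (log2 fold change -0.85, edgeR adjusted p = 0.00391) and Acta1 (-0.78, adjusted p = 0.0204), and Myh7 was at 0 in 6 libraries. PBS 8 h replicates 1, 2 and 3 also stood apart in the share of counts from the repeat-derived row Gm10800, at 1.83%, 1.77% and 2.45%. Replicate 4 had 0.877%, within the 0.550% to 0.972% after CGRP at 8 h. All PBS 8 h libraries together spanned 21821 to 25227 detected genes, against 21138 to 21962 after CGRP at 8 h. The part of these features in the results below was not tested.

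Levels between genes were compared as TPM, with counts divided by the joined length of all annotated exons of a gene. This length can exceed that of any transcript. It was 4237 bases for Atp5b, whose longest transcript has 1916, and 619 bases for Cox8a, whose longest transcript has 550. The order of members below holds for this length and was not computed with transcript lengths. The mitochondrial members led, with mt-Nd1 at 9138 ± 1220 TPM, mt-Cytb at 4544 ± 478 and mt-Co1 at 4228 ± 386 (SD over 16 libraries). The next were mt-Nd5 at 1836 ± 178 TPM and mt-Nd4 at 1010 ± 117 TPM. These libraries were primed with oligo(dT), so they read the polyadenylated forms. By this measure the most abundant nuclear members were 3 subunits of complex IV, Cox8a (769 ± 58.9 TPM), Cox4i1 (697 ± 35.1) and Cox6a1 (641 ± 57.4). Next came Atp5a1, the alpha subunit of ATP synthase (641 ± 76.3), and Ndufa2 of complex I (612 ± 32.2, named after its values were seen). Atp5b, the catalytic beta subunit of ATP synthase, followed (581 ± 75.4). From Cox4i1 to Atp5b, and for mt-Cytb and mt-Co1, neighbours in the order differed by less than the larger of their SDs, while Cox8a lay above Cox4i1 by more than either SD. Of the nuclear members named with values, the least abundant were Cox7a1 (8.93 TPM), Atp5s (9.77) and Cox8b (10.3). Cox7a1 and Cox8b are isoforms typical of heart and skeletal muscle fibres. Atp5l, not among those named, lay lower by length, with 777 counts over 6443 exon bases, against 196 over 535 for Cox7a1.

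The nuclear members took 0.827% ± 0.0154 of all counts after CGRP and 0.791% ± 0.0346 after PBS at 4 h, and 0.888% ± 0.0486 after CGRP and 0.764% ± 0.0179 after PBS at 8 h (SD, n = 4 each). The counts assigned to mitochondrial members made up a similar share. At 4 h it was 0.799% ± 0.0664 after CGRP and 0.824% ± 0.0983 after PBS. At 8 h it was 0.850% ± 0.0318 after CGRP and 0.745% ± 0.0350 after PBS. Levels of mt-Co2, mt-Co3, mt-Atp6 and mt-Nd3, and in part of mt-Co1 and mt-Nd4, are uncertain as given above. The share may therefore leave out reads of these genes. In bulk samples such as these, fewer cells of a type and less RNA per cell cannot be told apart.

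The first question was whether CGRP moved these genes by 4 h. It moved few of them: among 88 members, 2 rose, Atp5d among them, and 3 fell (Ndufa13, Ndufv3 and Cox7a2l) at an adjusted p under 0.05 in edgeR's quasi-likelihood test, with Benjamini-Hochberg adjustment over all 13949 genes tested. Over all genes, 7.84% were called higher and 8.39% lower, shares above those of the members. The median log2 fold change was -0.05 for the nuclear members and -0.10 for the mitochondrial members, against -0.002 for all genes tested. Values were positive in 29 of the 88 members, against 49.8% of all genes tested. At an unadjusted p under 0.05, 6 members were higher and 7 lower, against 1970 higher and 2062 lower of all genes tested. With upper-quartile scaling 1 member rose and 4 fell. Without PBS 4 h replicate 2, or without CGRP 8 h replicate 1, 3 rose and 2 fell. Without CGRP 4 h replicate 3 or replicate 4, or without PBS 4 h replicate 3, the number called dropped to 3, 3 and 2.

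Atp5d, the delta subunit in the central stalk of ATP synthase (chr10:80138632-80145818, plus strand), moved most. It had 252, 230, 283 and 272 CPM in the CGRP 4 h libraries, against 149, 168, 166 and 172 CPM in the PBS 4 h libraries. Every CGRP library lay above every PBS library, a separation that 8.95% of all tested genes had in the same direction, and the fold was 1.58 (log2 fold change 0.66 ± 0.08 SE, edgeR adjusted p = 5.96e-06). The call held in all 16 fits that left out 1 library. Atp5d shares 3.53% of its exon bases with Cbarp on the other strand, and the strand setting of the counting was not given in the sources.

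Cox5a and Ndufa12, both described with the 8 h results, had all CGRP libraries above all PBS libraries at 4 h, with log2 fold changes of 0.31 ± 0.11 (adjusted p = 0.0672) and 0.30 ± 0.11 (adjusted p = 0.0732).

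Ndufa13, a complex I subunit also studied as GRIM-19, had 129, 130, 127 and 118 CPM after CGRP at 4 h, against 144, 168, 148 and 159 CPM after PBS. It fell by 0.30 ± 0.07 on the log2 scale (edgeR adjusted p = 0.00765), with no overlap. Every CGRP library lay below every PBS library at 4 h in 9 of the 88 members and in 1383 of all 13949 genes tested. Ndufa13 shares 34.8% of its 25-base words with other genes and 29.98% of its exon bases with Tssk6 on the other strand. Ndufv3, an accessory subunit of the NADH-oxidising module, had 75.9, 76.6, 66.6 and 62.6 CPM after CGRP, against 78.1, 91.6, 92.4 and 91.6 CPM after PBS. It fell by 0.33 ± 0.09 (adjusted p = 0.0178) with no overlap, and 1 PBS library lay near the CGRP libraries. Cox7a2l, which helps join complexes III and IV into supercomplexes and is carried in a shortened, unstable form by C57BL/6 mice, had 67.8, 73.1, 72.1 and 68.3 CPM after CGRP, against 73.6, 94.8, 79.9 and 93.3 CPM after PBS. It fell by 0.28 ± 0.10 (adjusted p = 0.0476) with no overlap, but the call was lost in 15 of the 16 fits that left out 1 library.

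The second question was the state at 8 h, where members moved upward. Of the 88 members, 13 rose and 0 fell at an adjusted p under 0.05 (edgeR), against 5.00% of all tested genes called higher and 3.66% called lower. All 13 were nuclear, and they included Uqcrq, Uqcrc2, Uqcr11 and Uqcrc1 of complex III, Ndufa8, Ndufa12, Ndufs1 and Ndufb6 of complex I, Cox5a and Cox7b of complex IV, and Atp5b and Atp5a1 of complex V. Their fold changes were small, between 1.17 and 1.44. The log2 fold change was positive in 70 of 88 members, against 47.6% of all genes tested. Its median was 0.15 for the nuclear and 0.08 for the mitochondrial members, against -0.02 for all genes tested. At an unadjusted p under 0.05, 33 members were higher and 2 lower, against 1654 higher and 1504 lower of all 13949 genes. In 25 members, 23 of them nuclear, every CGRP library lay above every PBS library, and in 0 the reverse held. Over all 13949 tested genes, 8.08% had every CGRP library above every PBS library, and 942 had the reverse.

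The number called at 8 h depended on which libraries were used. It was 4 without CGRP 8 h replicate 1, 6 without CGRP 8 h replicate 4, 8 without PBS 8 h replicate 1, 6 without PBS 8 h replicate 3 and 4 without PBS 8 h replicate 4. Without the 4 libraries with the most detected genes (PBS 8 h replicates 1 and 4, CGRP 4 h replicate 3 and PBS 4 h replicate 4), or without the 3 PBS 8 h libraries with the highest Gm10800 share, it was 0. In those fits the calls over all genes dropped to 191 of 14605 and 146 of 15896, against 1209 of 13949 with all libraries, and the median of the nuclear members was 0.16 and 0.19. Uqcrq, Ndufa8, Cox5a and Ndufa12 kept their calls in all 16 fits without 1 library.

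**Figure D2:**
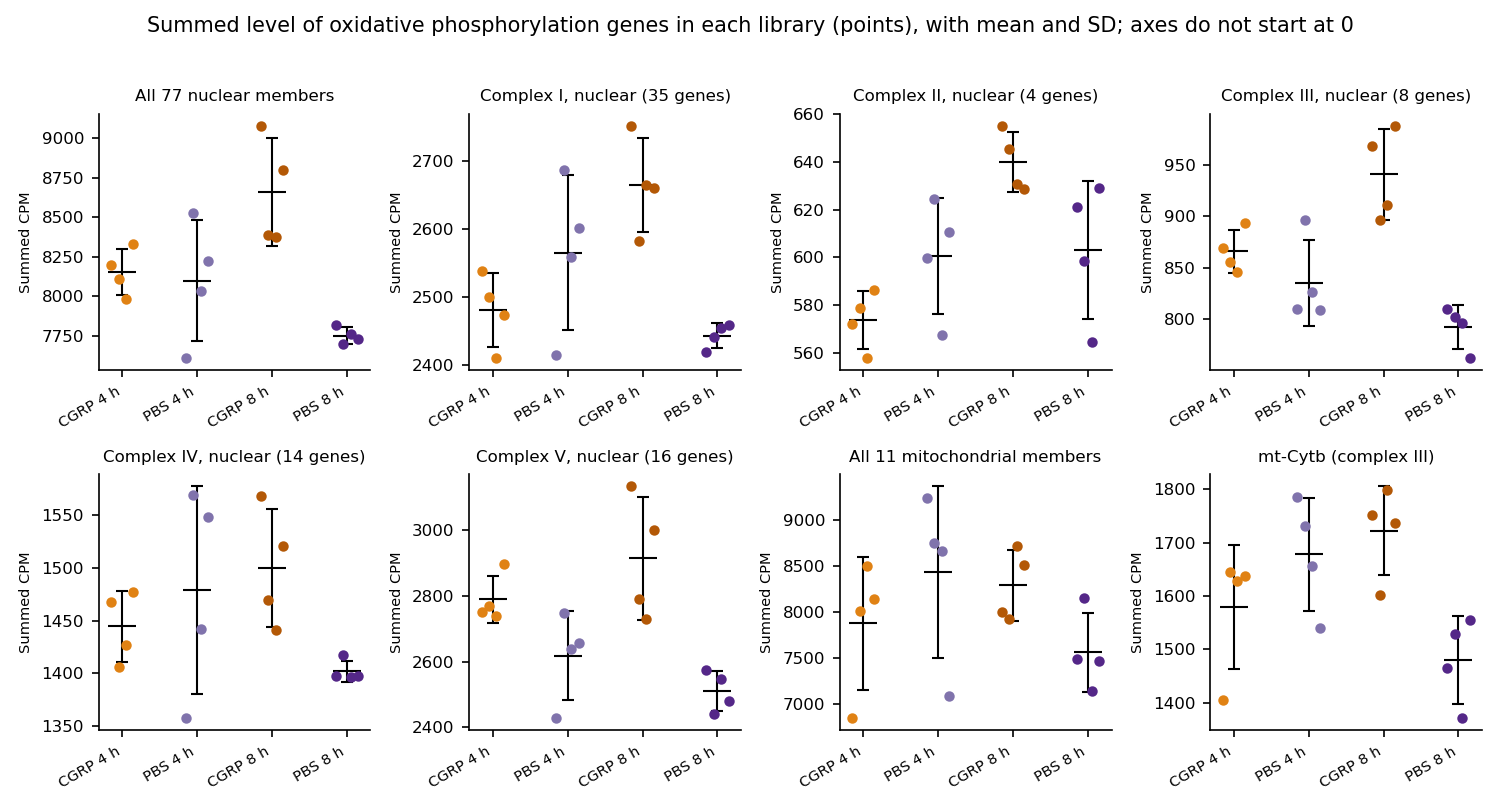
Summed level (CPM) of the members of each complex and genome in each library (points), with the group mean and SD (bars, n = 4). Axes do not start at 0. At 8 h the sum of the 77 nuclear members lay between 8376 and 9080 CPM after CGRP, above the 7698 to 7821 CPM after PBS, while the sum of the 11 mitochondrial members overlapped between the groups.

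Summed over the 77 nuclear members, the level was 8660 ± 342 CPM after CGRP at 8 h, against 7751 ± 52.5 CPM after PBS. The sums are descriptions and were not tested. At 4 h the corresponding sums were 8154 ± 147 CPM after CGRP and 8098 ± 384 CPM after PBS, and the groups overlapped. By complex, the 8 h sums of nuclear members did not overlap for complex I (2582 to 2752 CPM after CGRP, 2418 to 2458 after PBS), complex III (896 to 988 after CGRP, 762 to 810 after PBS), complex IV (1441 to 1568 after CGRP, 1396 to 1417 after PBS) and complex V (2730 to 3136 after CGRP, 2440 to 2575 after PBS). For complex II the highest PBS library (629.1 CPM) lay just above the lowest CGRP library (628.5 CPM).

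Complex III had the highest median, a log2 fold change of 0.27 over its 8 nuclear members at 8 h, with 4 called higher. Uqcrq, a small subunit of complex III near cytochrome b (chr11:53427922-53430831, minus strand), had 90.2, 89.3, 80.3 and 88.0 CPM after CGRP at 8 h, against 61.9, 58.2, 67.4 and 54.8 CPM after PBS. The lowest CGRP library was well above the highest PBS library (log2 fold change 0.52 ± 0.10, edgeR adjusted p = 0.00331). At 4 h its values were 96.3, 78.5, 71.6 and 88.7 CPM after CGRP and 63.2, 82.0, 72.7 and 69.2 CPM after PBS, and the groups overlapped (0.22 ± 0.10, adjusted p = 0.153).

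The core subunits of complex III also passed. Uqcrc1, whose promoter is printed above, had 324, 274, 302 and 305 CPM after CGRP at 8 h, against 264, 259, 254 and 252 CPM after PBS (0.23 ± 0.07, edgeR adjusted p = 0.0455), with no overlap. Uqcrc2 (chr7:120635176-120659524) had 146, 137, 118 and 143 CPM after CGRP, against 128, 101, 105 and 96.4 CPM after PBS (0.34 ± 0.09, adjusted p = 0.0246). Here 1 PBS library lay above the lowest CGRP library. Uqcrc2 shares 25.8% of its words with other genes and 19.7% of its exon bases with Pdzd9 on the other strand. The fourth, Uqcr11, named after its values were seen, had 68.1, 62.0, 68.8 and 75.6 CPM after CGRP, against 52.5, 61.9, 55.4 and 53.6 CPM after PBS (0.30 ± 0.09, adjusted p = 0.0454), and the nearest libraries of the 2 groups were almost level. The Rieske iron-sulfur protein Uqcrfs1 had a log2 fold change of 0.22 (adjusted p = 0.135), and the hinge protein Uqcrh had the lowest value of the complex, -0.03.

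In complex I, 5 of 35 nuclear members rose at 8 h, and their median log2 fold change was 0.12. Ndufa8 (chr2:36036326-36049406, minus strand) had 81.7, 70.2, 84.4 and 80.6 CPM after CGRP, against 57.7, 60.9, 56.8 and 61.3 CPM after PBS. The groups stood clear of each other (0.42 ± 0.09, edgeR adjusted p = 0.00562). At 4 h its log2 fold change was 0.02 ± 0.09. Ndufa12, an accessory subunit of the peripheral arm (chr10:94198720-94221443, plus strand), had 42.1, 38.1, 34.4 and 39.2 CPM after CGRP at 8 h, against 27.3, 30.5, 24.2 and 26.3 CPM after PBS (0.51 ± 0.11, adjusted p = 0.0083). It too had no overlap. It shares 23.7% of its words with other genes.

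Ndufs1, the largest subunit of complex I, which carries iron-sulfur clusters (chr1:63143596-63176833, minus strand), had 132, 119, 118 and 118 CPM after CGRP at 8 h, against 98.7, 97.7, 104 and 94.2 CPM after PBS (0.30 ± 0.08, edgeR adjusted p = 0.0166). The groups did not overlap at 8 h, and at 4 h the log2 fold change was -0.04. Ndufb6, of the membrane arm and named after its values were seen, had a log2 fold change of 0.34 ± 0.10 (adjusted p = 0.0433) with overlapping groups, and shares 39.0% of its exon bases with Smim27 on the other strand. Ndufv1, which holds the NADH binding site, had 0.09, and the lowest value of the complex was -0.14 for Ndufa6. Of the members that fell at 4 h, Ndufa13 had -0.03 and Ndufv3 -0.05 at 8 h.

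No member of complex II passed at 8 h in edgeR, where 2 had an unadjusted p under 0.05. Its 4 members had log2 fold changes between 0.02 for Sdha, the flavoprotein that oxidises succinate, and 0.24 for Sdhc, a membrane anchor. The iron-sulfur subunit Sdhb had 0.17. At 4 h Sdhc had 35.2, 35.3, 35.4 and 33.0 CPM after CGRP, against 38.2, 46.8, 37.8 and 45.3 CPM after PBS, with no overlap and a log2 fold change of -0.28 that missed the threshold (edgeR adjusted p = 0.104).

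In complex IV, 2 of 14 nuclear members rose at 8 h. Cox5a, a subunit on the matrix side of the enzyme (chr9:57521274-57532426, plus strand), had 67.5, 47.9, 50.1 and 58.2 CPM after CGRP, against 36.5, 39.9, 38.9 and 41.8 CPM after PBS. The CGRP libraries spread widely but all lay above the PBS libraries (0.51 ± 0.11, edgeR adjusted p = 0.00696). At 4 h Cox5a had 54.9, 50.5, 51.0 and 57.1 CPM after CGRP and 39.5, 48.9, 39.6 and 44.5 CPM after PBS. Cox7b, a small membrane subunit encoded on the X chromosome, had 111, 96.3, 99.97 and 112 CPM after CGRP at 8 h, against 85.9, 82.6, 91.2 and 78.6 CPM after PBS (0.31 ± 0.09, adjusted p = 0.0302), also without overlap.

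The isoforms of complex IV separate ubiquitous from muscle-type subunits. The ubiquitous Cox4i1, Cox6a1, Cox6b1 and Cox8a had log2 fold changes of -0.03, 0.15, 0.17 and 0.06 at 8 h, and none passed in edgeR or DESeq2. Cox7a2, the ubiquitous partner of Cox7a1, had 134, 125, 113 and 136 CPM after CGRP, against 102, 107, 112 and 104 CPM after PBS (0.26, edgeR adjusted p = 0.0511), just outside the threshold. The muscle-type Cox7a1 was low, with 0.806, 0.322, 1.04 and 1.37 CPM after CGRP and 2.66, 1.46, 1.21 and 2.28 CPM after PBS at 8 h. It had the lowest log2 fold change of the complex, -1.13 ± 0.48 (adjusted p = 0.158). Cox8b, also muscle-type, had -0.57 ± 0.67 (adjusted p = 0.684). The summed myofibre markers given above were lower after CGRP at 8 h as well. Their part in these values was not tested. Cox7a2l had -0.25 ± 0.10 at 8 h (adjusted p = 0.108), close to its 4 h value of -0.28.

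In complex V, the alpha and beta subunits passed at 8 h. Atp5b, the catalytic beta subunit (chr10:128083273-128090391, plus strand), had 928, 820, 733.5 and 895 CPM after CGRP, against 734.4, 662, 682 and 677 CPM after PBS (0.29 ± 0.08, edgeR adjusted p = 0.0206). The lowest CGRP library and the highest PBS library were almost level. Atp5a1, the alpha subunit, named after its values were seen, had 760, 672, 646 and 712 CPM after CGRP. After PBS it had 608, 537, 596 and 592 CPM (0.26 ± 0.08, edgeR adjusted p = 0.0361). Atp5d, which had led at 4 h, had 187, 180, 183 and 183 CPM after CGRP at 8 h, against 166, 161, 153 and 147 CPM after PBS. Its groups did not overlap at 8 h either, with a log2 fold change of 0.22 ± 0.08 (adjusted p = 0.0769). The genes Atp5g1, Atp5g2 and Atp5g3 encode the same mature c subunit of the rotor with different import signals, and had 0.29 (adjusted p = 0.0992), 0.18 (adjusted p = 0.654) and 0.26 (adjusted p = 0.0857) at 8 h. Atp5s, counted in complex V by its symbol alone, had the lowest value there, -0.45 ± 0.24 (edgeR adjusted p = 0.269).

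**Figure D3:**
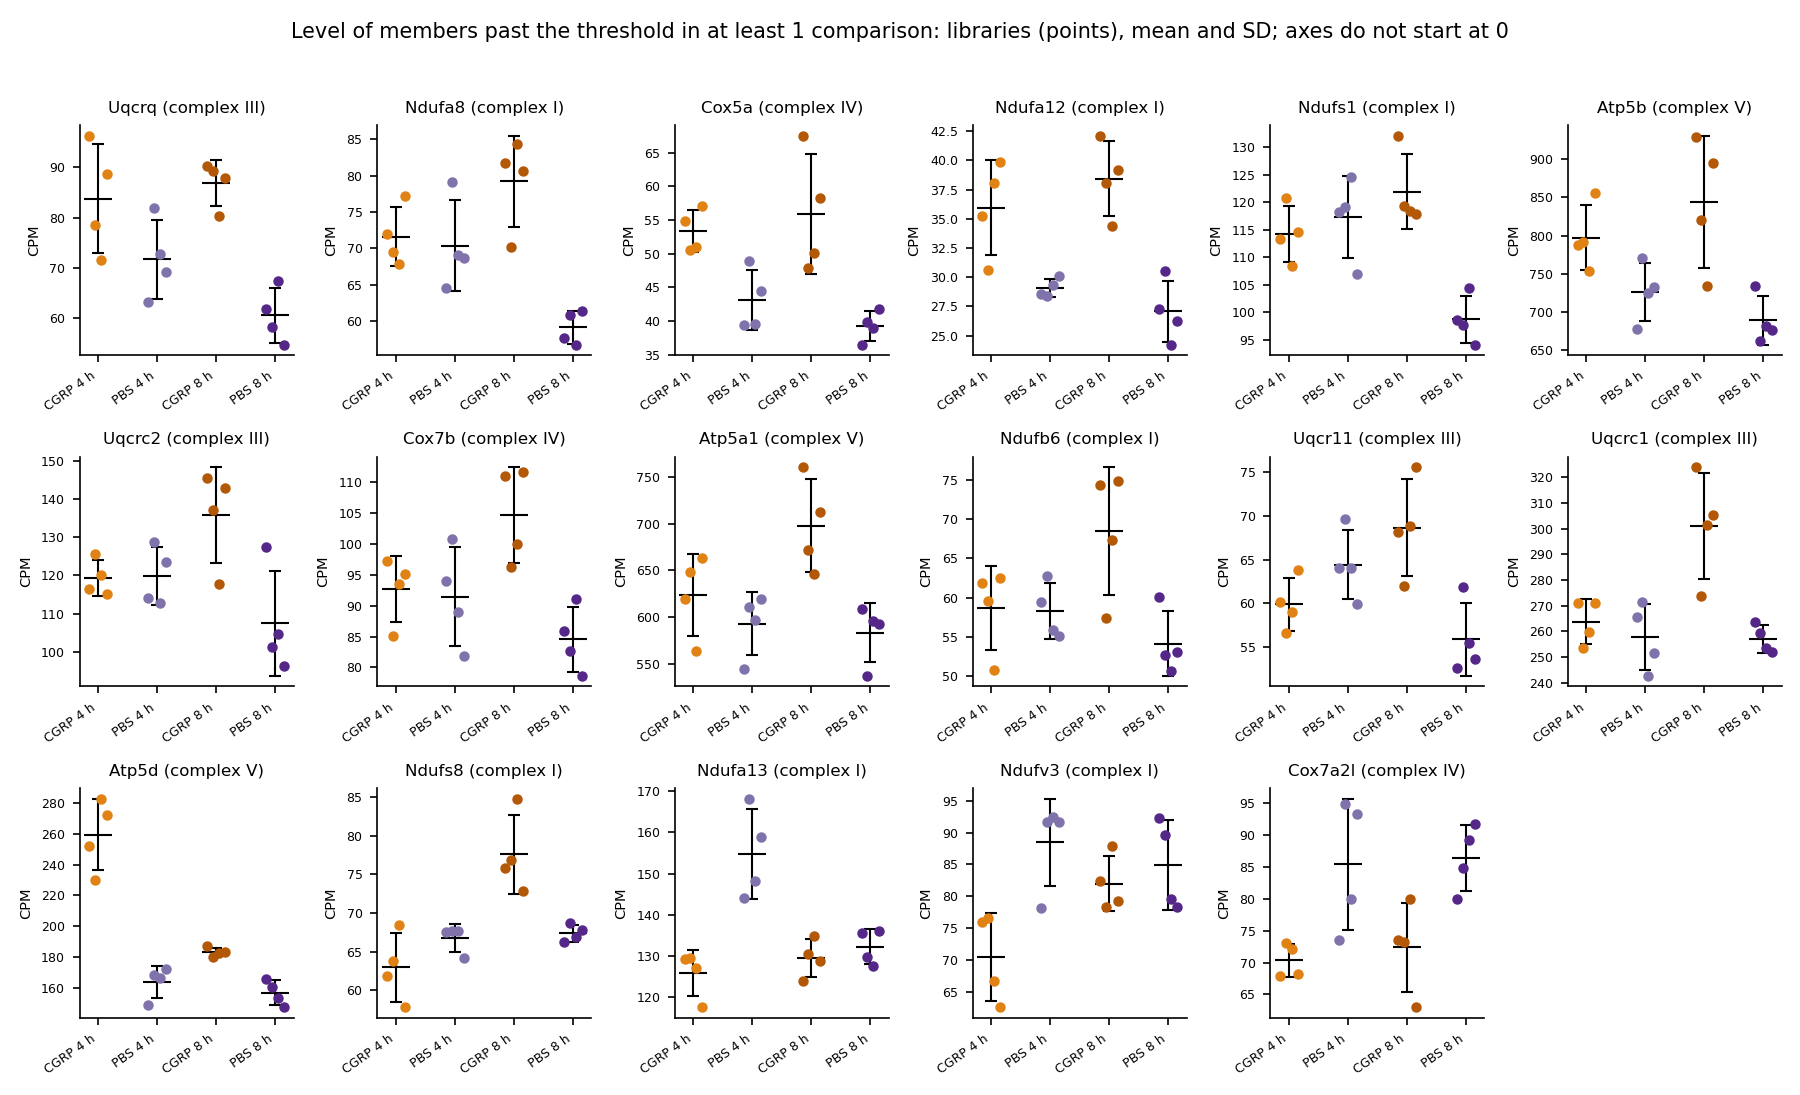
Level (CPM) in each library (points), with the group mean and SD (bars, n = 4), for 17 members that passed an adjusted p of 0.05 in a comparison, in the order CGRP 4 h, PBS 4 h, CGRP 8 h and PBS 8 h. Axes do not start at 0. Atp5d lies at 230 to 283 CPM after CGRP at 4 h, above its other 3 groups, and Uqcrq, Ndufa8, Cox5a and Ndufa12 lie higher after CGRP than after PBS at 8 h without overlap.

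The mitochondrial members gave no call at either time in edgeR. At 4 h all 11 had negative log2 fold changes, with 0 at an unadjusted p under 0.05 in either direction. At 8 h 6 of 11 were positive, with 2 higher and 0 lower at an unadjusted p under 0.05. The row with the most counts, mt-Nd1, which encodes a complex I subunit and shares no words, had 2902, 2662, 3140 and 2939 CPM after CGRP at 8 h, against 2412, 2746, 2283 and 2362 CPM after PBS (0.25 ± 0.10, edgeR adjusted p = 0.122). The groups overlapped by 1 library. The cytochrome b gene mt-Cytb, the mitochondrial subunit of complex III, had 1752, 1603, 1798 and 1737 CPM after CGRP, against 1465, 1529, 1371 and 1555 CPM after PBS. Its groups did not overlap, with a log2 fold change of 0.22 ± 0.07 (adjusted p = 0.0686), and DESeq2 called it higher. In mt-Nd5 too every CGRP library lay above every PBS library (0.14, adjusted p = 0.329).

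The catalytic subunit of complex IV, mt-Co1, had 1752, 1966, 2054 and 2016 CPM after CGRP at 8 h, against 2006, 2194, 1958 and 2017 CPM after PBS (-0.07 ± 0.09, edgeR adjusted p = 0.707). Log2 fold changes at 8 h were 0.08 for mt-Nd4, -0.06 for mt-Nd2, 0.10 for mt-Nd6, 0.24 for mt-Co2, -0.13 for mt-Nd3, -0.14 for mt-Co3 and -0.03 for mt-Atp6. The mt-Co2, mt-Co3, mt-Nd3 and mt-Atp6 rows rest on 1.68 to 7.46 CPM and on words shared with copies. Rows that copy the mitochondrial genome held 132 to 222 counts per library in all. Adding them to the mitochondrial share changed it to 0.852% after CGRP and 0.747% after PBS at 8 h. Any reads left uncounted because they fit both a gene and its copy would be in neither set of rows. The sum of the rows cannot show how many there were.

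**Figure D4:**
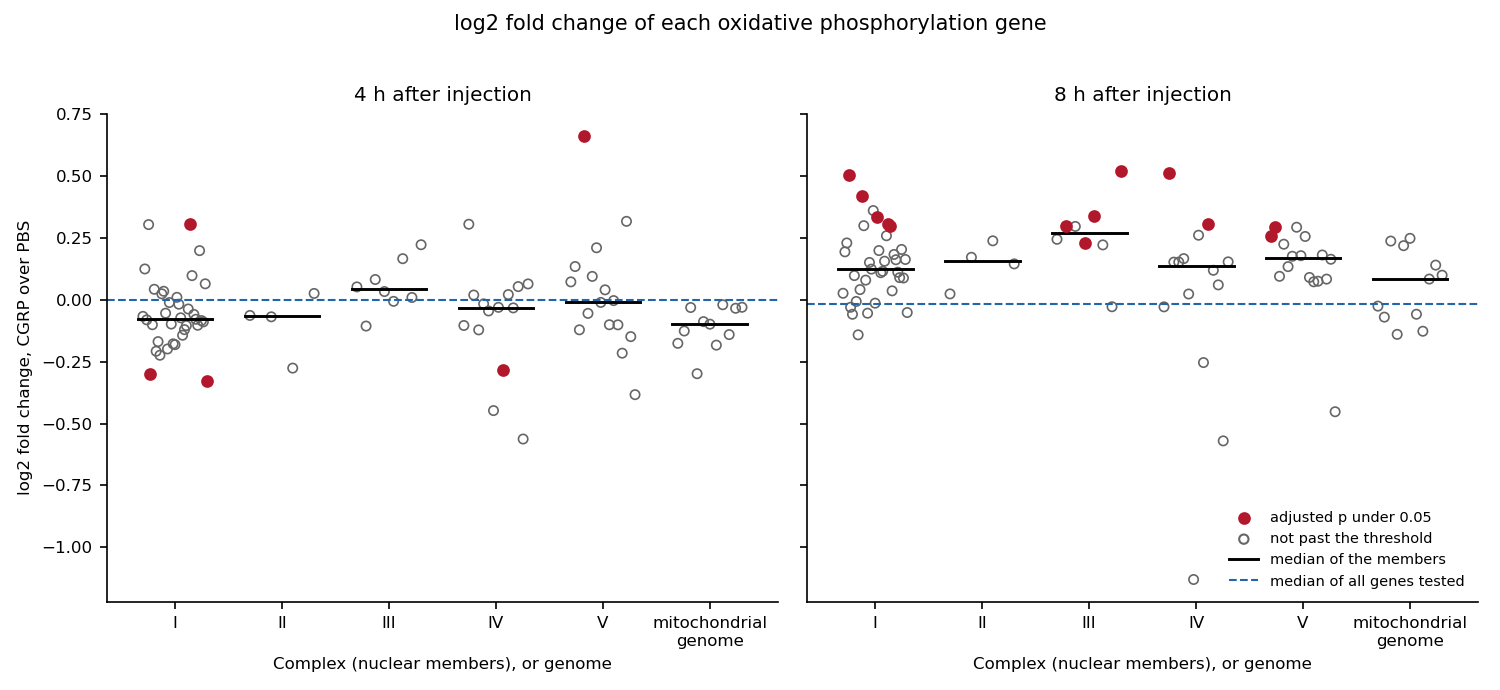
Log2 fold change, CGRP over PBS, of each member (points) by complex and genome at 4 h and 8 h, with the median of each set (black line), the median of all genes tested (dashed line) and members past an adjusted p of 0.05 filled. The nuclear medians at 8 h run from 0.12 for complex I to 0.27 for complex III, and the mitochondrial members spread around 0.08.

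The 4 h and 8 h effects were then compared directly. The difference between them, the CGRP effect at 8 h minus that at 4 h, was called for 0 of 88 members in edgeR, against 1.12% of all tested genes. It was positive in 78 of 88, against 49.6% of all genes tested. Its median was a log2 difference of 0.18, against -0.003 for all genes tested. At an unadjusted p under 0.05 in edgeR, 22 members were higher and 1 lower, against 1088 higher and 909 lower of all 13949 genes. DESeq2 called 1 member, Atp5d, as lower. In edgeR the difference for Atp5d was -0.44 ± 0.11 (adjusted p = 0.0524), and it passed without CGRP 4 h replicate 2 or without PBS 4 h replicate 4. Members that passed at 8 h and not at 4 h are therefore not shown to respond differently at the 2 times.

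The comparisons over time reuse the libraries of the comparisons above. After CGRP, 8 h over 4 h, 1 member rose and 1 fell, against 7.26% of all genes called in either direction. Ndufs8, an iron-sulfur core subunit of complex I, had 75.8, 76.9, 84.8 and 72.9 CPM at 8 h, against 61.9, 63.8, 68.5 and 57.8 CPM at 4 h (0.30 ± 0.08, edgeR adjusted p = 0.0284). The times did not overlap, a separation that 929 of all 13949 genes had in the same direction. The call was lost in 4 of 16 fits without 1 library. Atp5d had 180 to 187 CPM at 8 h, against 230 to 283 CPM at 4 h, and fell by 0.50 ± 0.08 on the log2 scale (adjusted p = 0.000262). This call held in all 16. Log2 fold changes were positive in 72 of 88 members, with a median of 0.10. Of all genes tested 48.3% were positive, with a median of -0.01.

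After PBS, 8 h over 4 h, 0 of 88 members were called in edgeR and 0 in DESeq2, against 0.516% of all genes. At an unadjusted p under 0.05 in edgeR, 0 were higher and 10 lower, against 940 higher and 879 lower of all 13949 genes. Of the 88, 14 were positive, with a median of -0.07, against 49.3% and -0.005 for all genes tested. Ndufa8 was 56.8 to 61.3 CPM after PBS at 8 h, against 64.5 to 79.2 CPM at 4 h (adjusted p = 0.219). Ndufs1 was 94.2 to 104 CPM after PBS at 8 h, against 107 to 125 CPM at 4 h (adjusted p = 0.144). The PBS 8 h libraries, which enter the 8 h comparison, thus lay lower for these genes than those of PBS at 4 h without passing the test.

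Genes that serve the same complexes but lie outside the symbol rule were read from lists. Cyc1, the cytochrome c1 subunit of complex III, rose at both times (0.33 ± 0.10, edgeR adjusted p = 0.0195 at 4 h and 0.40 ± 0.10, adjusted p = 0.0112 at 8 h), and Cycs, the soluble carrier cytochrome c, rose at 8 h (0.73 ± 0.19, adjusted p = 0.0161). Ndufab1, the acyl carrier subunit of complex I, rose at 8 h (0.43, adjusted p = 0.0395). At 4 h the Ndufa4 paralogue Ndufa4l2 fell by 1.27 ± 0.27 (12.996 CPM after CGRP, 31.1 CPM after PBS, adjusted p = 0.00334). Atpif1, the inhibitor of ATP synthase, fell by 0.47 (adjusted p = 0.00815), and Higd2a fell by 0.43 while Higd1a rose by 0.41, both of a family that associates with complex IV. In all, 2 of these 9 rose and 3 fell at 4 h (median log2 fold change 0.11), and 3 rose and 0 fell at 8 h (median 0.12). Over all genes tested the medians were -0.002 at 4 h and -0.02 at 8 h.

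Assembly factors gave few calls, all of them higher after CGRP, and their shares can be read against the 7.84% (4 h) and 5.00% (8 h) of all tested genes called higher. For complex I, 1 of 15 rose at 4 h, Ndufaf4 (0.66 ± 0.15, edgeR adjusted p = 0.00404), and 0 of 15 at 8 h. For complexes II and III, 2 of 10 rose at 4 h, Uqcc1 (0.40) and Bcs1l (0.46), which inserts the Rieske protein, and 0 at 8 h. For complex IV, 2 of 20 rose at 4 h, Lrpprc (0.76), which stabilises mitochondrial mRNA, and Cox10 (0.59), an enzyme on the route to haem a. At 8 h 2 rose, Cox14 (0.43) and Cox10 (0.68). For complex V, Tmem70 was the 1 of 4 called at both times (0.28 at 4 h, adjusted p = 0.0491, and 0.42 at 8 h, adjusted p = 0.0104). The median log2 fold changes of these 4 lists, in the order named, were 0.17, 0.03, 0.11 and -0.16 at 4 h, and 0.15, 0.04, 0.06 and 0.05 at 8 h.

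Genes that copy and read the mitochondrial genome had 4 of 27 higher and 0 lower at 4 h, with a median log2 fold change of 0.26. Elac2, the nuclease that trims the 3′ ends of mitochondrial tRNAs, had 59.5 CPM after CGRP and 22.2 CPM after PBS (1.42 ± 0.17, edgeR adjusted p = 1.41e-05). The others were Polrmt, the mitochondrial RNA polymerase (0.47), Trmt10c of the tRNA-processing RNase P (0.65) and Fastkd1 (0.84). At 8 h 1 of 27 rose, the elongation factor Tefm (0.85, adjusted p = 0.0386), and the median was 0.09. Of 17 regulators of mitochondrial biogenesis, 1 rose at 4 h, Pprc1, a coactivator related to PGC-1 (0.70 ± 0.15, adjusted p = 0.0031), and 0 at 8 h, with medians of 0.13 at 4 h and -0.04 at 8 h.

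Other lists of mitochondrial and energy metabolism were read against the same background, 7.84% of all tested genes called higher and 8.39% lower at 4 h, and 5.00% higher and 3.66% lower at 8 h. Of 33 genes for import, carriers and chaperones, 15 rose and 1 fell at 4 h (median log2 fold change 0.26), and 14 rose and 0 fell at 8 h (median 0.31). They included Slc25a5, an ADP/ATP carrier (343 CPM after CGRP and 147 CPM after PBS at 8 h, log2 fold change 1.22, edgeR adjusted p = 0.00198), the phosphate carrier Slc25a3 (0.41 at 4 h, 0.29 at 8 h), Timm10 (1.04 and 0.90) and the chaperone Hspa9 (0.82 and 0.73). Of 24 citric acid cycle genes, 3 rose and 2 fell at 4 h (median 0.02), and 5 rose and 0 fell at 8 h (median 0.16). Idh3a rose at both times (0.58 and 0.51), Idh2 fell at 4 h by 0.66 (adjusted p = 0.000626), and Mdh2, Cs and Fh1 rose at 8 h (0.45, 0.30 and 0.34).

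Of 19 glycolysis genes, 7 rose and 1 fell at 4 h, led by Ldha (0.69), Slc16a1 (1.56), Hk2 (1.89) and Pgk1 (0.53), and 7 rose and 0 fell at 8 h, led by Gapdh (0.54), Pgk1 (0.82), Tpi1 (0.36) and Pkm (0.42). The medians were 0.08 at 4 h and 0.38 at 8 h. Among 9 uncoupling and antioxidant genes, 3 rose at 4 h, with Sod2 at 0.88 and Txn2 at 0.40, and 5 at 8 h, with Prdx5 at 0.47, Txn2 at 0.45, Prdx3 at 0.39 and Gpx1 at 0.30. Of 77 mitochondrial ribosome genes, 9 rose at 4 h and 13 at 8 h, and of 83 cytosolic ribosome genes, 10 and 23, with 0 lower in both lists. Their medians were 0.11 at 4 h and 0.26 at 8 h for the mitochondrial ribosome, and 0.16 at 4 h and 0.22 at 8 h for the cytosolic ribosome. The uncoupling and antioxidant genes had medians of 0.17 and 0.30. Without the 4 libraries with the most detected genes, the 8 h calls were 0 for both ribosome lists, for import and for the citric acid cycle, and 2 for glycolysis. Without the 3 PBS 8 h libraries of highest Gm10800 share they were 0 in these 5 lists. The lists share their libraries and scaling with the members, and no difference between lists was tested.

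**Figure D5:**
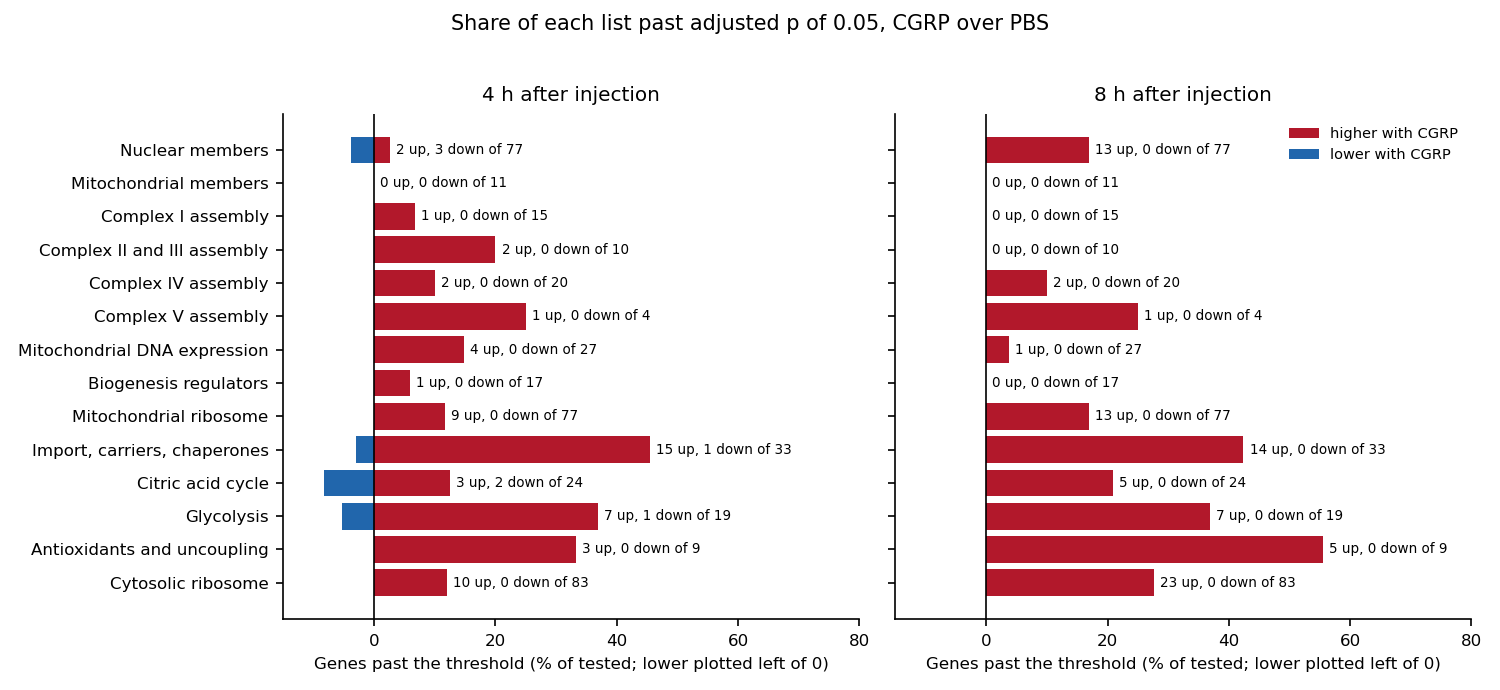
Share of each list past an adjusted p of 0.05, CGRP over PBS (percent of tested genes; higher to the right of 0, lower to the left), at 4 h and 8 h, with counts beside each bar. The nuclear members show 2 higher and 3 lower of 77 at 4 h and 13 higher and 0 lower at 8 h, and the import list shows 15 higher of 33 at 4 h and 14 at 8 h.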

How the data were processed

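The series is an RNA-seq study of mRNA in 16 libraries of sorted cells. The authors deposited 1 table of raw counts per gene, with no normalization. Per the submitters' processing notes, reads were aligned with STAR 2.5.4 to mm10 and counted with featureCounts; the annotation, strand setting and treatment of reads with several positions were not given in the sources used here. Per the labels' protocols, cDNA was primed with oligo(dT) and sequenced as paired reads of 25 bases. Columns were matched to samples by name. The totals, 6373713 to 10011920 counts, set the counting error, and the biological coefficient of variation was 17.4%.

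All 5 comparisons came from 1 edgeR 4.0.16 quasi-likelihood fit (robust, filterByExpr, TMM, a mean per group, 12 residual degrees of freedom; R 4.3.3, limma 3.58.1) over 13949 genes, two-sided, with Benjamini-Hochberg adjustment over all of them. CPM were scaled by TMM factors. TPM used GENCODE M21 exon lengths. The fit was tested on simulated data. DESeq2 1.42.0, other scalings and filters, a replicate block, 2-group fits and fits without 1 library were alternatives, and the fit without 3 PBS 8 h libraries was chosen after seeing the data. Figures and tables used Python 3.11.15, pandas 2.3.3 and matplotlib 3.10.9.

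The members and lists were chosen with earlier results of these data known. Named with values are all mitochondrial members, up to 8 called members per direction and comparison, set isoforms and core subunits, the extremes of each complex and up to 4 genes per list. 1 item is not reported here.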

Additional observations from a re-analysis of the deposited data

Results flagged for a closer look

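Single libraries were compared with the other 3 of their group by Dixon's test, which chance passes in about 1 of 20 groups; 9 of 228 groups held such a library. In the sum of nuclear complex IV members, PBS 8 h replicate 2 had 1417 CPM against 1396 to 1397 CPM in the other 3, a small gap in a tight group. Among single genes, Ndufs1 had 132 CPM in CGRP 8 h replicate 1 against 118 to 119 CPM in the others. Its lowest CGRP library still lay above the highest PBS library. For Ndufv3, PBS 4 h replicate 1 had 78.1 CPM against 91.6 to 92.4 CPM, which brought it close to the CGRP libraries.

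The c-subunit genes Atp5g1 and Atp5g3 each had 1 high PBS 8 h library. Atp5g1 had 47.3 CPM in replicate 1 against 38.5 to 39.4 CPM, and Atp5g3 had 126 CPM in replicate 2 against 104 to 108 CPM. In PBS 4 h replicate 4, Ndufs8 had 64.1 CPM against 67.6 to 67.7 CPM, and mt-Nd6 had 18.0 CPM against 26.9 to 27.6 CPM. In the CGRP 4 h group, Sdhc had 33.0 CPM in replicate 4 against 35.2 to 35.4 CPM, and mt-Cytb had 1405 CPM in replicate 1 against 1628 to 1645 CPM.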

How the results depend on the processing

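No called member and no median over the nuclear or mitochondrial members changed sign under any alternative run, while values of some members that did not pass the test did. The 4 h median of all genes, near 0, lay between -0.04 and 0.01, and at 8 h it was 0.003 without the high Gm10800 libraries, against -0.02. Over the named members and the lists, 6807 recomputed values kept their direction and their side of the threshold or stayed near their count, 254 fell short and 58 went past. The 4 h count of 5 was 2 without a low-count filter and 2 without the 4 libraries with the most detected genes, and 2 to 5 with 1 library left out. The 8 h count of 13 was 6 with upper-quartile scaling, 8 without a low-count filter and 8 in the fit of the 2 groups alone. It was 0 without the 4 libraries with the most detected genes, 0 without the 3 PBS 8 h libraries of high Gm10800 share, which leaves 1 PBS library assumed to vary like the other groups, and 4 to 15 with 1 library left out. Uqcrq then had log2 fold changes of 0.48 and 0.68 in the fits that gave 0 (edgeR adjusted p = 0.0699 and 0.0719). The 8 h nuclear median was 0.11 with upper-quartile scaling and 0.19 without the high Gm10800 libraries, against 0.15. Upper-quartile scaling moved the median of all genes to -0.04 at 4 h and -0.06 at 8 h. DESeq2 called 2 higher and 4 lower at 4 h and 16 higher and 0 lower at 8 h, among them all 13. The difference between times, 0 in edgeR, was 1 in DESeq2 and 0 to 1 with 1 library left out. After CGRP, 8 h over 4 h, the count of 2 was 1 without a filter, 1 with the 2 groups alone, 4 in DESeq2 and 1 to 2 with 1 library left out. The cause of these changes was not tested, save that fewer libraries or groups give each test less data.

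Replicate numbers recur in every group, but same-numbered libraries did not deviate together (correlations -0.0863 to 0.0882, against -0.0856 to 0.0708 for other numbers), and not every library correlated best with its own number. With the replicate number as a block, 2 members rose and 2 fell at 4 h, 10 rose and 0 fell at 8 h, 0 were called for the difference, 2 after CGRP and 0 after PBS. Depth limits the rarest rows: Cox7a1, at 0.322 to 2.70 CPM, had SEs of 0.46 at 4 h and 0.48 at 8 h on the log2 scale, against 0.07 to 0.11 for the members called at 8 h.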
